A study of Mus musculus with 12 samples.

Results

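The glucose-sensing ChREBP and Txnip genes were followed in pancreatic islets of mice that overexpress a microRNA in β-cells. Txnip, Arrdc4, Mlxipl, Mlx, Pklr and G6pdx were chosen by name, as the rows of the count table whose Ensembl identifier maps to these symbols. They are 6 of the 37991 genes in the table, each with 1 identifier, and all 6 were among the 15961 genes with enough counts to be tested. Bulk RNA sequencing was performed on 12 islet libraries in 4 groups of 3, namely wild-type (Wt) and Tg7 mice at 2 weeks (2w) and at 12 weeks (12w) of age. All mice were male and of the C57BL/6 strain, the Wt mice were littermates of the Tg7 mice, and each library was made from islets pooled from several animals. Tg7 mice carry a transgene for miR-7a2 that is active in β-cells, so other islet cells were not its target, and the promoter that drives it was not given in the sources used here. They were described as normoglycaemic at the younger age and hyperglycaemic at the older. The labels name no separate litters or isolation days, so the p-values measure the spread between these pools.

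Each library held between 11610697 and 17515758 counts, and levels below are given in CPM, the count scaled to a common library total. The transgene itself could not be checked, since the row for the Mir7-2 precursor held 0 to 13 counts per library and such a row does not measure the mature microRNA. The islet label was met by the hormone genes. Insulin genes took 10.1 to 15.4% of the counts in Wt and 1.84 to 4.09% in Tg7 at 2w, and 14.8 to 30.0% against 8.08 to 8.24% at 12w, where Wt library 4 had the lowest Wt share. Of 8 β-cell markers 6 fell at 2w and 7 at 12w, while 0 of 5 α-cell and 0 of 2 δ-cell markers were called at either age. Of 6 stellate cell and fibroblast markers 5 rose at 2w and 6 at 12w, and their summed level was 34.4 to 41.4 CPM in Wt and 259 to 294 CPM in Tg7 at 12w. All 4 endothelial markers rose at 12w and 0 of 4 at 2w. The part of these shifts in the results below was not tested, and in bulk islets fewer cells of a type cannot be told apart from less RNA per cell.

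ChREBP, the protein of Mlxipl, is a transcription factor that becomes active when sugar phosphates build up in a cell, and it binds DNA together with its partner Mlx. Its close relative MondoA, the protein of Mlxip, works with the same partner. The pairs bind carbohydrate response elements, which are made of a pair of E-box-like boxes with a short spacer. In β-cells a rise in glucose switches on Txnip and the related Arrdc4 through these elements, and Txnip binds and inhibits thioredoxin and slows glucose uptake. Pklr encodes the liver and red cell type of pyruvate kinase, the last enzyme of glycolysis, and is a classic ChREBP target. G6pdx encodes glucose-6-phosphate dehydrogenase, which opens the pentose phosphate pathway and supplies NADPH.

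As counted on mm9, Txnip spans chr3:96361880-96365806, Pklr chr3:88940064-88950706, Mlxipl chr5:135582761-135614254 and Mlx chr11:100948591-100953521, all on the plus strand. Arrdc4 spans chr7:75881931-75894127 and G6pdx chrX:71654822-71674533, both on the minus strand. All are protein-coding, and reads over their exons made up the counts. The promoters of the 6 genes were searched first for such boxes. RefSeq promoters (assembly GRCm38.p6, from 250 bases before the start site to 50 bases after) were available for 8 start sites of the 6 genes, and each matched the mm9 genome of the count table exactly once. The Txnip promoter, on chromosome 3 at chr3:96361630-96361929 on the plus strand, held a pair of boxes in a row between 85 and 69 bases before the start site. In capitals is the 17-base match to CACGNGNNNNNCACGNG, at chr3:96361795-96361811.
Txnip promoter: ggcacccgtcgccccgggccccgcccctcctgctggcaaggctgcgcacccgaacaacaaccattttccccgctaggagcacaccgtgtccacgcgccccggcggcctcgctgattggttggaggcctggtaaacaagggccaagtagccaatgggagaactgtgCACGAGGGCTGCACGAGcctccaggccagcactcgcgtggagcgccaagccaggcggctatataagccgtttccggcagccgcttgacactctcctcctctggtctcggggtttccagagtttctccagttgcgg

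The second start site of Pklr, 481 bases inside the counted gene, held a pair of boxes that face each other between 170 and 154 bases before the start. Its promoter lies at chr3:88940295-88940594 on the plus strand, and the capitals mark the match to CACGNGNNNNNCNCGTG at chr3:88940375-88940391.
Pklr promoter, second start site: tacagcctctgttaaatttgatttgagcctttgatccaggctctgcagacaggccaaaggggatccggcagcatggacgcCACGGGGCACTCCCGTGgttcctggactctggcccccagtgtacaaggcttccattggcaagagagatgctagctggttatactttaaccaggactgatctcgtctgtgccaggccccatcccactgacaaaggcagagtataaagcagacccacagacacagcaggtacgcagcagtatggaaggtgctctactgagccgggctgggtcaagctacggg

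Arrdc4, Mlx and Mlxipl held no match to a paired pattern but each held 1 single E-box of the letters CACGTG. This box reads the same on both strands. It lay between 193 and 188 bases before the start in Arrdc4, at chr7:75894312-75894317 with the gene on the minus strand. In Mlx it lay between 40 and 35 bases before the start, at chr11:100948564-100948569, on the plus strand. In Mlxipl, also on the plus strand, it lay between 98 and 93 bases before the more upstream of 2 start sites, at chr5:135565662-135565667. That start site is 17001 bases upstream of the gene as counted, so reads from its first exon were not part of the Mlxipl count. The windows below show the box in capitals with 12 bases on each side, read along the gene's strand.
Arrdc4: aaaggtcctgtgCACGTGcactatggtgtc
Mlx: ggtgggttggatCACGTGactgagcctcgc
Mlxipl, upstream start site: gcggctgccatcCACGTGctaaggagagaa

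No match to the 3 patterns was found in the G6pdx promoter, at the counted Mlxipl start or at the first Pklr start. The single E-box was present in 2349 of 32851 RefSeq promoters, or 7.15%. The pair in a row was present in 16 promoters (0.0487%) and the facing pair in 15 (0.0457%), with both strands searched and no single E-box inside either match shown. The 2 longer patterns were written after these promoters had been read, so these shares describe how rare the letters are and test nothing.

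The mature miR-7a-5p is shown with its seed, bases 2 to 8, in capitals. The DNA match to that seed is GTCTTCC, which 2437 of 19915 genes (12.2%) held in an annotated 3′ UTR. Among the 6 genes Mlx held 1 match and the other 5 held 0, and Mlxip, the MondoA gene, also held 1. The Mlx match lies in the 3′ UTR at chr11:100953113-100953119 and the Mlxip match in the 3′ UTR at chr5:123906604-123906610, both on the plus strand, and both are shown with 11 bases on each side.
miR-7a-5p: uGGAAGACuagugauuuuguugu
Mlx site: gctcttgccctGTCTTCCcaaaggcaaag
Mlxip site: tgctagctcttGTCTTCCttccacaatgt

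Levels were first compared among the 6 genes per kb of exon, as CPM per kb. In Wt islets at 2w Mlxipl was highest at 79.0 ± 1.21 (SD, n = 3), followed by Txnip at 48.7 ± 13.4, Mlx at 23.6 ± 1.62, G6pdx at 10.3 ± 1.13, Arrdc4 at 4.96 ± 0.65 and Pklr at 2.96 ± 0.25, and no neighbours in this order overlapped. In Tg7 islets Txnip took the first place at both ages, at 129 ± 98.2 at 2w and 154 ± 30.1 at 12w. At 2w its lowest library still overlapped the highest Mlxipl library, and at 12w it did not. Arrdc4 stood above G6pdx in Tg7 and below it in Wt, with overlapping libraries in Tg7 at 2w only. In Wt at 12w Txnip, Mlxipl and Mlx could not be ordered, since each overlapped its neighbour.

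**Figure D1:**
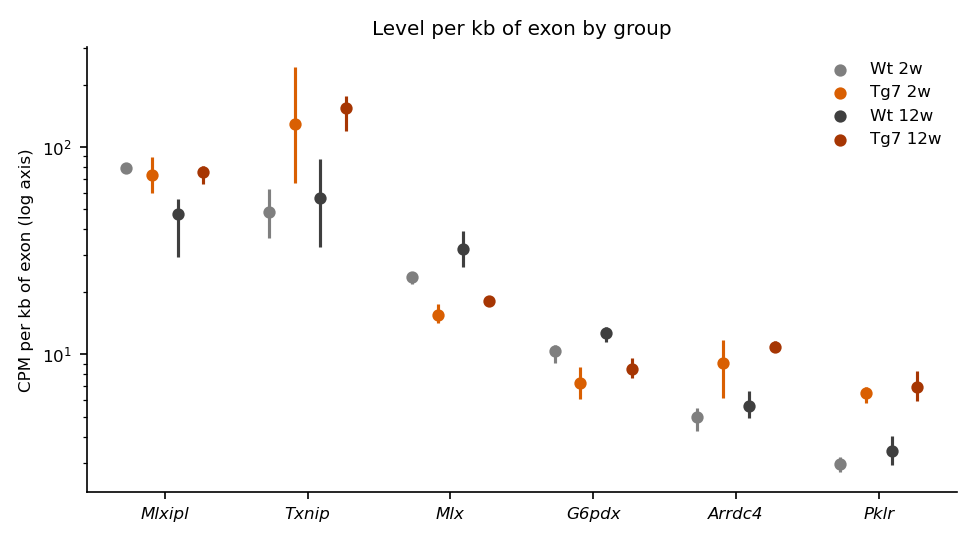
Level of each gene per kb of exon (CPM per kb, log axis) in the 4 groups. Points are means of 3 libraries and lines run from the lowest to the highest library. Mlxipl was highest in Wt at 2w (79.0) and Txnip was highest in Tg7 at 12w (154).

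Txnip, which inhibits thioredoxin, was higher in Tg7 at both ages. It was measured at 109.8, 190.5 and 142 CPM in the Wt libraries at 2w and at 734, 237 and 203 CPM in Tg7. The Tg7 libraries all lay above Wt, but library 1 held more than the other 2 Tg7 libraries together. At 12w Wt libraries had 99.7, 152 and 264 CPM and Tg7 libraries 364, 533 and 508 CPM, again without overlap. Tg7 exceeded Wt by 1.41 on the log2 scale at 2w (SE 0.44), with an adjusted p of 0.0553 by edgeR's quasi-likelihood test, so the gene was not called there at the threshold of 0.05. At 12w it was 1.44 (SE 0.44), a 2.72-fold rise with an adjusted p of 0.0297. The 2w value was called under 5 of 8 other settings, over 1.36 to 1.58, and was 0.58 without Tg7 library 1. The 12w call was lost without Wt library 1 or 2 or without Tg7 library 2 or 3, and leaving out any of the 6 libraries gave values between 1.14 and 1.89.

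Arrdc4, an α-arrestin like Txnip that also limits glucose uptake, rose at both ages. Wt libraries had 20.5, 21.9 and 16.9 CPM at 2w and Tg7 libraries 46.5, 37.9 and 24.4 CPM. At 12w the values were 19.7, 21.0 and 26.5 CPM in Wt and 41.6, 42.2 and 46.1 CPM in Tg7. The groups did not overlap at either age, and the Tg7 libraries were close together at 12w. The change was 0.87 on the log2 scale at 2w (SE 0.21, adjusted p = 0.0152), or 1.83-fold. It was 0.95 at 12w (SE 0.21, adjusted p = 0.00468), or 1.93-fold. Tg7 library 1 at 2w was the highest of its group for Arrdc4 as for Txnip. The 2w call was lost without Wt library 1 or without Wt library 3.

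Pklr rose at both ages by about the same amount. It was measured at 8.72, 9.65 and 10.3 CPM in Wt and 21.7, 18.8 and 22.5 CPM in Tg7 at 2w. At 12w Wt libraries had 13.0, 9.45 and 10.5 CPM and Tg7 libraries 19.3, 26.9 and 21.3 CPM. Every Tg7 library lay above every Wt library of either age. The rise was 2.20-fold at 2w, or 1.14 on the log2 scale (SE 0.18, adjusted p = 0.0011). At 12w it was 2.06-fold, or 1.04 (SE 0.18, adjusted p = 8.38e-04). Pklr was called at both ages under all 8 other settings and with any 1 library left out. Pkm, the pyruvate kinase form of most tissues, was far more abundant. It stood at 96.8 ± 15.5 times the Pklr level per kb in Wt and 29.2 ± 2.34 times in Tg7 at 2w, and at 76.9 ± 22.4 and 32.8 ± 6.49 times at 12w (SD, n = 3 each). The ranges of this ratio did not overlap between genotypes at either age.

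Mlxipl, the ChREBP gene, was not called at 2w. Its libraries held 432, 419.8 and 421 CPM in Wt and 322, 478 and 377 CPM in Tg7, which overlapped, with Tg7 at -0.11 against Wt on the log2 scale (SE 0.21, adjusted p = 0.779). At 12w Wt libraries held 300.0, 302 and 159 CPM and Tg7 libraries 356, 434 and 426 CPM. Tg7 then lay above Wt in every library, by 0.68 on the log2 scale (SE 0.21, adjusted p = 0.0336), or 1.60-fold. The Wt level itself was lower at 12w than at 2w, at -0.74 on the log2 scale (SE 0.21, adjusted p = 0.0297), and Tg7 libraries did not show this, at 0.05 (SE 0.21, adjusted p = 0.908). The difference of the Tg7 effect between ages was 0.79 (SE 0.30), with an unadjusted p of 0.0194 from edgeR and an adjusted p of 0.246, and was not called. Wt library 4, the lowest for Mlxipl, also had the lowest insulin share of its group. Without it the 12w change was still called at 0.43 and the fall with age in Wt at -0.50. The 12w call was lost without Tg7 library 2 or 3, and with the groups of the comparison fitted alone (0.64). The age call in Wt was lost without any 1 of the Wt libraries at 2w.

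Mlx, the shared partner, fell at both ages. The Wt libraries had 49.96, 43.6 and 47.9 CPM at 2w and the Tg7 libraries 29.4, 28.2 and 34.8 CPM. At 12w the values were 62.6, 78.6 and 52.7 CPM in Wt and 36.9, 37.2 and 34.5 CPM in Tg7. No Tg7 library of either age reached the lowest Wt library of either age. The fall was -0.61 on the log2 scale at 2w (SE 0.15, adjusted p = 0.0171). It reached -0.84 at 12w (SE 0.15, adjusted p = 0.00111). In Wt the gene rose from 2w to 12w by 0.45 (SE 0.15, adjusted p = 0.0496), close to the threshold. Among the fits with 1 library left out, only the one without Wt library 4 kept this call. It was also kept under 4 of 8 other settings. With libraries scaled by their total alone the falls were -0.44 and -0.39 and neither was called. The 2w call was also lost without Wt library 1 or 3 or Tg7 library 1 or 2, over values of -0.72 to -0.56. The level of Mlxipl per kb was 3.36 ± 0.20 times that of Mlx in Wt and 4.81 ± 1.31 times in Tg7 at 2w, and 1.45 ± 0.33 against 4.18 ± 0.52 times at 12w (SD, n = 3 each), without overlap between genotypes at either age.

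G6pdx was lower in Tg7. It had 27.8, 33.6 and 33.9 CPM in Wt and 26.8, 18.6 and 21.8 CPM in Tg7 at 2w. At 12w Wt libraries had 40.2, 35.3 and 41.7 CPM and Tg7 libraries 25.5, 29.4 and 23.6 CPM. The groups did not overlap at either age, though at 2w the nearest libraries were close. At 2w the change of -0.50 (SE 0.16, adjusted p = 0.0553) was not called. At 12w the gene fell by 0.58 on the log2 scale (SE 0.16, adjusted p = 0.0164). With libraries scaled by their total alone the 12w value was -0.13 and was not called, and the call was also lost without Tg7 library 1 or 3. G6pd2, a retrogene copy of G6pdx on an autosome, had 0 counts in all 12 libraries.

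**Figure D2:**
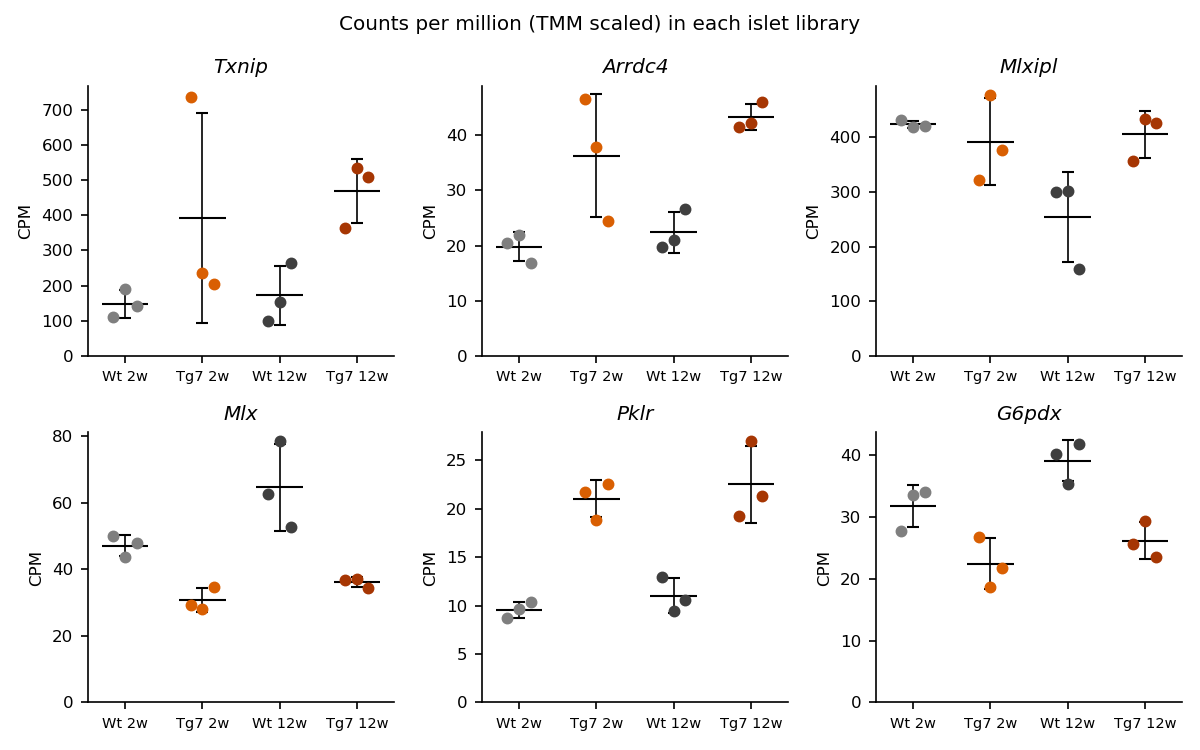
CPM (TMM scaled, axes from 0) of the 6 genes in each of the 12 libraries. Points are libraries, long bars the mean of 3 and whiskers 1 SD. Pklr libraries sit between 8.72 and 13.0 CPM in Wt and between 18.8 and 26.9 CPM in Tg7, and a single Tg7 library at 2w holds 734 CPM of Txnip.

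Counted together, 3 of the 6 genes were called at 2w, 2 up and 1 down, and 6 of 6 at 12w, 4 up and 2 down. Among all 15961 genes tested 10.6% were called at 2w (6.07% up and 4.55% down) and 23.6% at 12w (12.5% up and 11.2% down). The difference of the Tg7 effect between ages was called for 0 of 6 genes, against 1.18% of all genes, and 1 of the 6, Mlxipl, had an unadjusted p under 0.05. DESeq2 also called 0 of 6. For the other 5 genes this difference lay between -0.22 and 0.07, with SE of 0.21 to 0.61. From 2w to 12w Wt islets showed 2 calls among the 6, Mlxipl down and Mlx up, against 15.8% of all genes. Tg7 islets showed 0 of 6, with no unadjusted p under 0.05 and 0 by DESeq2, against 13% of all genes. Comparisons that share a group share its libraries, so these counts are not independent of each other. The 6 genes were chosen with earlier results of these data known, so the counts beside these shares are a description and no test.

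**Figure D3:**
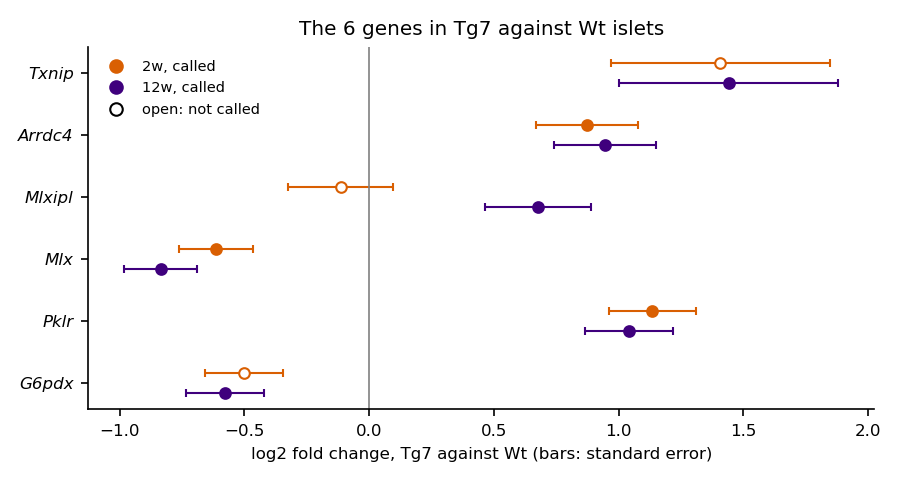
Log2 fold change of Tg7 against Wt at 2w and 12w for the 6 genes, with the standard error as bars and open points where the gene was not called. Txnip, Arrdc4 and Pklr lie between 0.87 and 1.44 at both ages, Mlx and G6pdx lie between -0.84 and -0.50, and Mlxipl moves from -0.11 to 0.68.

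Of 9 other genes for Mondo, Max and Mxd proteins, the network around ChREBP and Mlx, 2 rose and 0 fell at 2w, where 6.07% of all genes tested rose and 4.55% fell. At 12w 0 of 9 rose and 3 fell, beside 12.5% and 11.2% of all genes. The list had a median log2 fold change of 0.08 and -0.04 beside 0.03 and -0.01 for all genes tested. Mlxip had 76.1, 79.4 and 85.9 CPM in Wt and 79.8, 69.2 and 59.4 CPM in Tg7 at 2w, which overlapped, and was not called at -0.21 (SE 0.12, adjusted p = 0.289). At 12w it fell from 70.7, 78.0 and 81.5 CPM in Wt to 59.2, 60.5 and 55.8 CPM in Tg7, or by -0.39 on the log2 scale (SE 0.12, adjusted p = 0.0333). Mxd1, which encodes a repressor that pairs with Max, fell at 12w by 0.86 on the log2 scale (SE 0.15, adjusted p = 9.66e-04). Mga, another Max partner, fell at 12w by 0.56. Myc, the growth-promoting partner of Max, rose at 2w (0.85, SE 0.19, adjusted p = 0.0111) and was not called at 12w (0.14). Mxd4 rose at 2w by 0.65 and was not called at 12w, at 0.28.

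Of 21 genes listed as ChREBP targets 20 were tested, and they moved in both directions. At 2w 5 rose and 3 fell, with a median of 0.52, beside 10.6% of all genes called. At 12w 4 rose and 3 fell, with a median of 0.06, beside 23.6% of all genes called. The medians of all genes were 0.03 and -0.01. Fasn, the fatty acid synthase gene, fell at both ages by 0.50 and 0.51 on the log2 scale (adjusted p = 0.0395 and 0.0187 by edgeR). Elovl6, which lengthens fatty acids, fell from 36.2, 32.5 and 38.6 CPM in Wt to 26.8, 23.0 and 21.7 CPM in Tg7 at 2w and from 67.9, 56.8 and 71.0 CPM to 27.5, 26.3 and 28.3 CPM at 12w. The younger islets thus differed by -0.59 (SE 0.13, adjusted p = 0.0119) and the older by -1.25 (SE 0.13, adjusted p = 1.91e-05). Acacb, the mitochondrial carboxylase that restrains fat oxidation, rose at 12w by 2.02 (SE 0.41, adjusted p = 0.0032) from a low level of 0.63 to 1.07 CPM. Rgs16, a brake on G-protein signalling, had 6.81, 22.9 and 33.9 CPM in Wt and 61.01, 79.1 and 75.1 CPM in Tg7 at 12w, a change of 1.73 (SE 0.37, adjusted p = 0.00424). Bhlhe40, a transcriptional repressor chosen for mention after its values were seen, was the listed gene called up at both ages, by 0.98 and 0.94. Tkt, the transketolase gene, was not called, at 0.02 and 0.10.

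**Figure D4:**
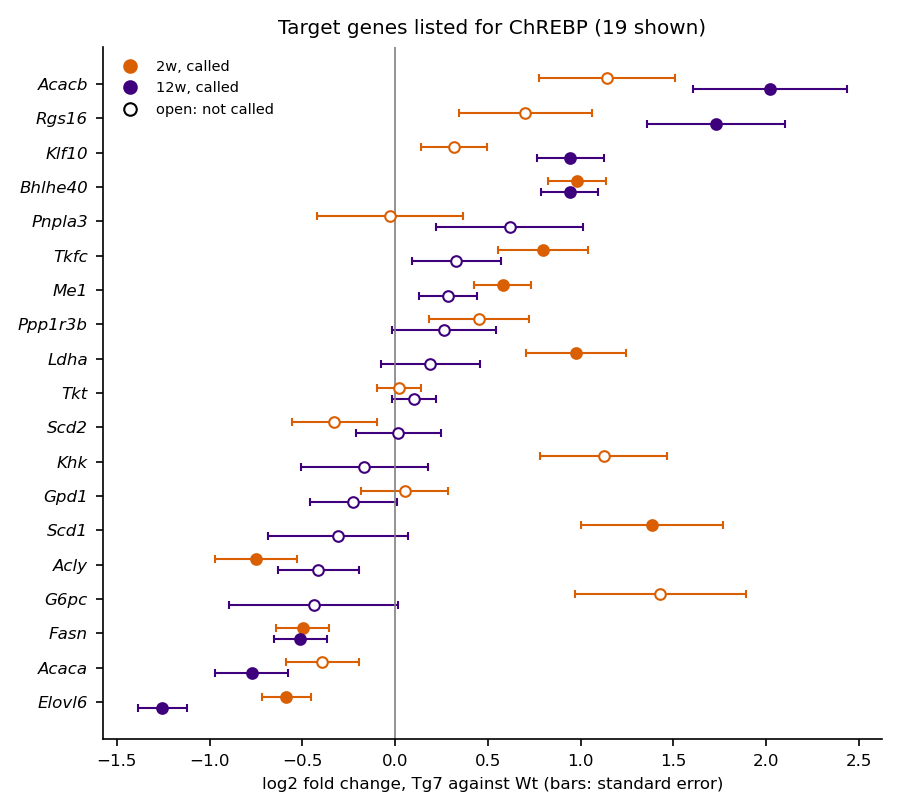
Log2 fold change of Tg7 against Wt at 2w and 12w for 19 tested genes of the ChREBP target list, ordered by the 12w value, with standard errors as bars and open points where not called. Bhlhe40 is called up and Fasn and Elovl6 are called down at both ages. Khk, G6pc and Scd1 are at 1.12 to 1.43 at 2w and below 0 at 12w, and of these values only that of Scd1 at 2w was called.

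Several targets in that list are most abundant in liver. The levels of G6pc, Scd1 and Khk, picked for this comparison, varied with albumin from library to library. No other listed target was set against albumin. What part this variation had in the results was not tested. Alb was measured at 37.4, 67.3 and 48.0 CPM in Wt and 67.5, 94.2 and 248 CPM in Tg7 at 2w, and at 145, 79.7 and 64.9 CPM in Wt and 47.1, 70.4 and 106 CPM in Tg7 at 12w. Scd1, a fatty acid desaturase gene, had 14.0, 22.5 and 15.8 CPM in Wt and 23.96, 34.5 and 77.5 CPM in Tg7 at 2w, with the same library on top. Over the 12 libraries the ratio of G6pc to Alb stayed between 0.153 and 0.200, that of Scd1 between 0.312 and 0.462, and that of Khk, the fructokinase gene, between 0.559 and 0.987. The ratio of Pklr to Alb ranged from 0.0896 to 0.409 and that of Txnip from 0.688 to 10.9. The 4 hepatocyte markers summed to 47.2 to 84.6 CPM in Wt and 82.9 to 303 CPM in Tg7 at 2w, and none of the 4 was at 0. Without Tg7 library 3 at 2w, with 248 CPM of Alb, 2 of the 20 listed targets were called at 2w in place of 8. These were Elovl6 and Bhlhe40, while Scd1 (0.74) and Fasn (-0.38) were not called. Calls over all genes at 2w also fell without that library, from 1695 to 1092. The list was not counted without any other 2w library, so the drop has no comparison among them. Pklr was called without that library, at 1.07.

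**Figure D5:**
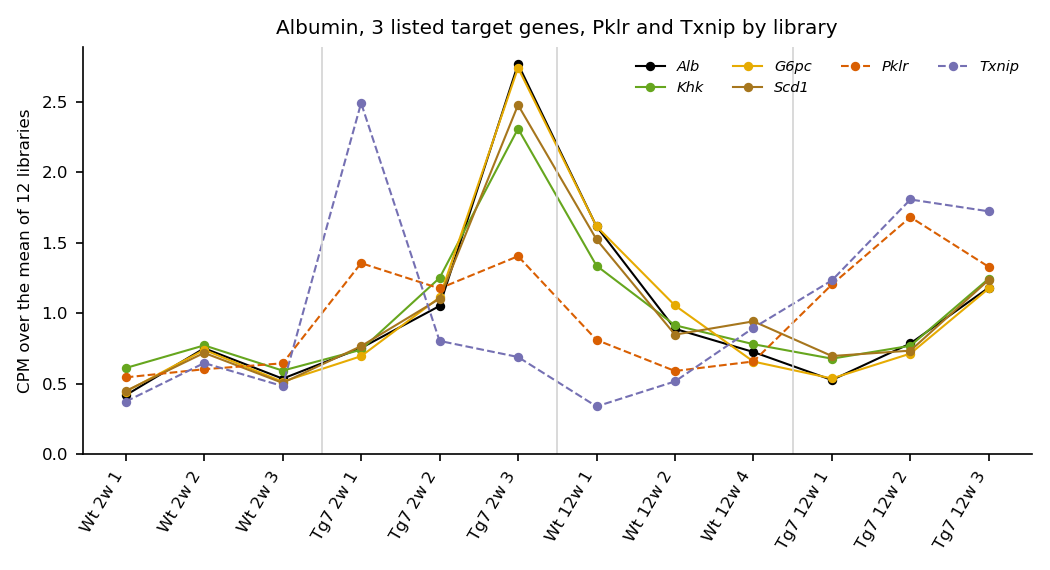
CPM of Alb, of the listed targets Khk, G6pc and Scd1 (solid lines) and of Pklr and Txnip (dashed) in each library, divided by the gene's mean over the 12 libraries. The solid lines run together and peak in Tg7 2w library 3, where Alb was 248 CPM, while Txnip peaks in Tg7 2w library 1 at 734 CPM.

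The genes that bring glucose into the β-cell and trap it included changes larger than any among the 6 genes. Of 11 genes for glucose entry and phosphorylation 10 were tested, and 0 rose and 2 fell at 2w, beside 10.6% of all genes called. At 12w 2 rose and 3 fell, beside 23.6% of all genes called. The list medians were -0.05 and -0.10, beside 0.03 and -0.01 for all genes. Slc2a2, the main glucose transporter of rodent β-cells (GLUT2), had 173, 176 and 181 CPM in Wt and 40.7, 24.7 and 40.6 CPM in Tg7 at 2w. At 12w it had 208, 173 and 363 CPM in Wt and 21.4, 43.4 and 36.6 CPM in Tg7. No Tg7 library came near a Wt library. The log2 fold changes were -2.32 and -2.88 (SE 0.30 each, adjusted p = 2.86e-04 and 1.87e-05 by edgeR). G6pc2, the islet glucose-6-phosphatase that undoes the first step of glycolysis, fell 11.8-fold from 1183 ± 268 to 101 ± 24.7 CPM at 2w and 10.5-fold from 2572 ± 163 to 244 ± 19.8 CPM at 12w (SD, n = 3 each). Slc2a1, the widely expressed transporter GLUT1, was not called at 2w (-0.18) and fell at 12w by 1.32 on the log2 scale (SE 0.21, adjusted p = 4.97e-04). Among hexokinases, which β-cells normally keep low, Hk1 rose at 12w by 0.66 (adjusted p = 0.00525), and Hk2 rose by 2.91 (SE 0.54, adjusted p = 0.00167) from 1 to 7 counts a library, or 0.504, 0.0794 and 0.467 CPM in Wt to 2.37, 2.21 and 3.26 CPM in Tg7.

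Among 12 genes for α-arrestins and the thioredoxin system 10 were tested. At 2w 0 were called, with 3 at an unadjusted p under 0.05 and 1 call by DESeq2, beside 10.6% of all genes called. At 12w 3 rose and 1 fell, beside 23.6% of all genes called. The list medians were 0.05 and 0.19, beside 0.03 and -0.01 for all genes. Arrdc2 rose at 12w by 0.87 (SE 0.18, adjusted p = 0.00302), close to the change of Arrdc4, and Arrdc1 rose by 0.55 (SE 0.14, adjusted p = 0.0099). Arrdc3 was not called at either age, at -0.08 and 0.20. Txn1, the thioredoxin that Txnip binds, was measured at 85.9 to 98.1 CPM in Wt and 84.3 to 111 CPM in Tg7 at 2w, and was not called at either age, at 0.01 and 0.22. The level of Txnip per kb was 0.546 ± 0.143 times that of Txn1 in Wt and 1.35 ± 0.82 times in Tg7 at 2w, and 0.785 ± 0.547 against 1.62 ± 0.33 times at 12w. The ranges of that ratio overlapped between genotypes at 12w. Of the mitochondrial enzymes, Txnrd2, a thioredoxin reductase, rose at 12w by 0.64 and Prdx3, a peroxiredoxin, fell by 0.50.

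Of 8 further pentose phosphate genes 7 were tested. At 2w 0 were called, with 2 at an unadjusted p under 0.05 and 1 call by DESeq2, beside 10.6% of all genes called. At 12w 1 rose and 0 fell, beside 23.6% of all genes called, and the list medians were 0.02 and 0.03. The gene that rose was Pgd, which encodes the next NADPH-producing enzyme after G6pdx, at 0.62 (SE 0.19, adjusted p = 0.0307), opposite to G6pdx. Of 12 further genes of glycolysis, from glucose phosphate isomerase to pyruvate kinase, 1 rose and 1 fell at 2w, and 1 rose and 2 fell at 12w. The shares called over all genes were 10.6% and 23.6%, and the list medians were -0.05 and -0.10 beside 0.03 and -0.01. Pkm fell at 2w from 739, 629 and 667 CPM in Wt to 475, 435 and 443 CPM in Tg7 (-0.59, SE 0.13, adjusted p = 0.0105) and was not called at 12w (-0.18, adjusted p = 0.344). Aldoc, the brain-type aldolase, rose at 2w by 1.06 (SE 0.21, adjusted p = 0.00597) and was not called at 12w (0.49). Gpi1, which interconverts glucose and fructose phosphates, rose at 12w by 0.82, while Aldoa and Pgk1 fell by 0.40 and 0.36.

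The genes whose log2 CPM followed Txnip most closely over the 12 libraries were Hist1h2ai (Pearson's r = 0.951), Hist1h1c (0.934), Barx2 (0.931), Olfml2b (0.922) and Cd84 (0.920). Arrdc4 came next, in place 6 of 15960 at 0.918, and Pklr was in place 397 at 0.754. Taken as deviations from the group means, the coefficient with Txnip was 0.771 for Arrdc4 and 0.043 for Pklr. Hist1h2ai, Barx2 and Cd84 had group means of 0.322 to 4.11 CPM, so their values rest on few reads. For Mlxipl the closest were A430110N23Rik, Slc39a2 and Gpr97 (0.947 each), Ager (0.944) and Gm13563 (0.931). With the rest of the 6 genes its coefficients ran from -0.636 for G6pdx to 0.280 for Pklr, with Mlx at -0.442. These libraries share their group structure, and the coefficients are given as a description with no test.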

How the data were processed

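RNA was measured by bulk sequencing of islet RNA. The deposited values are raw counts per Ensembl gene. According to the methods and the submitters' processing notes, the authors trimmed reads with Trimmomatic, aligned them to mm9 (NCBIM37) with TopHat2 2.0.11 and counted them with featureCounts. The strand setting was not given in the sources used here, so reads from genes that overlap on opposite strands may not have been told apart.

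Symbols, positions and exon lengths came from the Ensembl annotation of that build (GENCODE M1), which named 37205 of 37991 genes. Counts were fitted in 1 model of 4 group means with edgeR 4.0.16 (quasi-likelihood test, TMM scaling, R 4.3.3), after keeping the 15961 genes that passed filterByExpr with a minimum count of 10 and a minimum total of 15. Benjamini-Hochberg adjustment ran over all tested genes, and a gene was called at an adjusted p under 0.05. Standard errors were obtained as the size of the log2 change over the root of the F statistic. CPM was computed from the counts with TMM-scaled totals. Total counts of 11610697 to 17515758 per library set the precision. Replicate libraries of each group differed by more than sampling noise. The fit was tested on simulated data. DESeq2 1.42.0, other scalings and filters, a replicate block and each library left out were tried as alternatives.

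The 6 genes and the pathway and marker lists were chosen with earlier results of these data known. Named genes were all members, 12 fixed genes of the lists (2 of them not reported here), and up to 4 genes a list with the largest called change in Tg7 against Wt. For likeness the 5 highest Pearson coefficients were named. Tkfc, Pkm and the macrophage gene Adgre1 were found under older symbols, and 2 listed haemoglobin genes had no row. Other marker lists gave these counts of calls at 2w and at 12w. Of 2 pancreatic polypeptide cell markers 1 rose and then 0, of 6 acinar markers 0 and 0, of 4 ductal markers 0 and then 2 rose, of 5 macrophage markers 1 rose and then 1 fell, of 4 Schwann cell markers 0 and then 1 rose, of 4 hepatocyte markers 1 rose and then 0, of 4 adipocyte markers 0 and 0, and of 8 erythroid markers 0 and then 2 rose.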

Additional observations from a re-analysis of the deposited data

How the results depend on the processing

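At 2w between 3 and 4 of the 6 genes were called under the 8 other settings, and between 1 and 5 with 1 library left out. The count was 1 without Wt 2w library 1 or 3 and 5 without Wt 12w library 4. At 12w between 4 and 6 were called under the other settings and between 3 and 6 with 1 library left out, with 3 without Tg7 12w library 3. The difference between ages and the age comparison in Tg7 gave 0 calls throughout. For 12w against 2w in Wt the 2 calls became 1 with library size alone, with upper-quartile factors and with no filter, and 0 with the groups of the comparison alone, and ranged from 0 to 2 with 1 library left out. The cause was not tested.

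Scaling by library size alone moved the median of all genes to 0.19 at 2w and 0.43 at 12w, and to -0.35 for Wt and -0.13 for Tg7 with age. It turned the sign of values that were not called. These were Mlxipl at 2w (0.045), the difference between ages of Mlx (0.058), Pklr (0.20) and G6pdx (0.20), the Wt age change of Txnip (-0.13), Arrdc4 (-0.19), Pklr (-0.22) and G6pdx (-0.10), and the Tg7 age change of Mlxipl (-0.060) and Pklr (-0.021). With 1 library left out the sign turned for further values that were not called. Mlxipl at 2w ranged from -0.29 to 0.012. The difference between ages ranged from -0.27 to 0.89 for Txnip, from -0.11 to 0.32 for Arrdc4, from -0.24 to 0.030 for Pklr and from -0.19 to 0.089 for G6pdx. The age change of Txnip ranged from -0.23 to 0.51 in Wt and from -0.043 to 1.08 in Tg7, and in Tg7 that of Mlxipl ranged from -0.080 to 0.22 and that of Pklr from -0.050 to 0.20. No called value of the 6 genes changed sign.

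Same-numbered libraries did not deviate together (correlations of -0.17 to -0.01), but these few cannot exclude pairing. A fit with the replicate number as a block called 4 of the 6 genes at 2w and 4 at 12w, where Mlxipl (0.42) and G6pdx were not. It turned the Wt age change of Txnip to -0.34 and of Arrdc4 to -0.053. The number 4 occurs only in Wt at 12w, so the block gave that library a term of its own. The Wt 12w level in this fit thus rests on the other libraries of the group, and the fit is not separate from leaving library 4 out. The counts over all genes moved by over 1.5 times from 188 for the difference between ages to 563 with DESeq2, 347 with library size alone, 420 with no filter and 502 with the block, from 1695 to 2630 at 2w with the block, from 2524 to 4120 with library size alone, 3817 with the block and 1283 with the groups alone for Wt with age, and from 2079 to 3441 with the groups alone for Tg7 with age. Leaving out 1 library gave 754 to 3071 calls at 2w, 2417 to 4036 at 12w (from 3772), 82 to 579 for the difference, 1336 to 4020 for Wt with age and 1115 to 3329 for Tg7 with age. Moves over 1.5 times came at 2w without Wt 2w library 1 (912), 2 (1036) or 3 (754), Tg7 2w library 3 (1092) or Wt 12w library 4 (3071), and at 12w without Tg7 12w library 2 (2417) or 3 (2418). For the difference they came without Wt 2w library 2 (87) or 3 (91), Tg7 2w library 3 (113), Wt 12w library 4 (579) or Tg7 12w library 1 (82), 2 (91) or 3 (85). For Wt with age they came without Wt 2w library 2 (1336) or 3 (1349) or Wt 12w library 4 (4020), and for Tg7 with age without Wt 12w library 4 (3329) or Tg7 12w library 1 (1115), 2 (1210) or 3 (1212). Leaving out libraries for the ChREBP target list was chosen after seeing the data. Its 8 calls at 2w became 2 without Tg7 2w library 3 and 13 without Wt 12w library 4.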
